A study of Drosophila melanogaster with 2 samples.

Results

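The 10 genes described here encode heat shock proteins, other cytosolic chaperones and the factor that switches heat shock genes on. They were taken by name, with earlier results of these data known, from 13945 protein-coding genes on the 6 main chromosome arms. They are the small heat shock genes Hsp27, Hsp26, Hsp23 and Hsp22 of the 67B cluster on 3L, the constitutive chaperone genes Hsp83 and Hsc70-4, the J protein genes DnaJ-1, mrj and Droj2, and the regulator gene Hsf. The study made 2 biological replicates, numbered in its labels, of chromatin immunoprecipitation and sequencing (ChIP-seq) with an anti-GFP antibody. The chromatin came from whole Drosophila melanogaster embryos, male and female pooled and 0 to 24 h old, of the transgenic strain CG7556-GFP, which stably expresses the CG7556 protein with GFP fused to its C-terminal end. Both replicates form 1 group, the labels name no heat treatment, and the control was not analysed here, so no test between conditions could be made. In chromatin from whole embryos, binding in few cells and weak binding in many cells cannot be told apart.

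Small heat shock proteins hold unfolded proteins and keep them from aggregating without using ATP. Hsp70 proteins fold such clients with ATP, J proteins deliver clients to Hsp70 and start its ATP hydrolysis, and Hsp90 completes the folding of many kinases and receptors. On heat, the heat shock factor made by Hsf forms trimers on heat shock elements, inverted repeats of GAA, at promoters that GAGA factor and a paused RNA polymerase are known to keep open in Drosophila. The small heat shock genes of 67B are also known to be active during normal development, when the hormone ecdysone raises several of them.

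Each deposited region has a summit, its point of highest enrichment, and a signal, the authors' value on a scale that no label or file header states. A region with several summits is listed once for each, with a signal of its own. The pooled list of both replicates held 30000 regions with a median signal of 62.9. The authors' optimal list, the regions that passed their reproducibility threshold, held 7184 regions with a median signal of 244, and these were the highest regions of the pooled list. The lists hold no read counts, so the depth is unknown. A gene was called when an optimal summit lay in its span or within 2 kb of it, and coordinates are 1-based positions on build dm6.

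The sequences below show what lay under the summits at the genes with the clearest contrasts. The first 4 reach 100 bp to either side of the summit, are written 5′ to 3′ on the strand of the gene from the RefSeq Release 6 assembly, and overlap no annotated exon. Hsp27 (3L:9383795-9383995, plus strand) had the highest summit of the 10 genes. Hsp26 (3L:9377454-9377654, minus strand) lies in the same cluster, and the Hsp83 intron (3L:3194166-3194366, plus strand) had the highest summit of the constitutive Hsp90 gene. Hsp23 (3L:9381653-9381853, plus strand) is the small heat shock promoter whose summit stayed below the threshold. The last sequence is a 30 bp stretch beside the summit at the Hsp83 promoter (3L:3193137-3193166, plus strand). Capitals mark matches to the core of a heat shock element, searched as GAANNTTC or TTCNNGAA, and to GAGAG or its complement CTCTC, the core known to be bound by GAGA factor.
Hsp27 promoter: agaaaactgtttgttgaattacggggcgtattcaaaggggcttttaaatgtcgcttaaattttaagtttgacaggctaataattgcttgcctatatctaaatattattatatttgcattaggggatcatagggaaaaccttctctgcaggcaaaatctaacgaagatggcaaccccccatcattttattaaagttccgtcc
Hsp26 promoter: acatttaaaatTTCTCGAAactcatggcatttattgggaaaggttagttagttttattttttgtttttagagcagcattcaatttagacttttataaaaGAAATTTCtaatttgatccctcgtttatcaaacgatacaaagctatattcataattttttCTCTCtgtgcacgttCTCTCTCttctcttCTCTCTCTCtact
Hsp83 intron: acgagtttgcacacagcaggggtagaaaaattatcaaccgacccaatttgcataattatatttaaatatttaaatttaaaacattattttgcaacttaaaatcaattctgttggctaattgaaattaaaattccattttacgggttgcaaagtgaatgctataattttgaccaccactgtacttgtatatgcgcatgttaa
Hsp23 promoter, below the threshold: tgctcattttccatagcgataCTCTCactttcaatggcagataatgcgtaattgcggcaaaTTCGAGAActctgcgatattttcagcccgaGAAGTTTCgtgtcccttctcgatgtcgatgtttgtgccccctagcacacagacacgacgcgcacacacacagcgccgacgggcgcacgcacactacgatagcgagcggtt
Hsp83 promoter, heat shock element: agaagcctctaGAAGTTTCtagagacttcc

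The Hsp26 window held 2 heat shock element cores, the nearer one starting 1 bp before the summit, and 6 matches to GAGAG, some of which overlap each other. The Hsp27 window held neither motif, although its summit signal was 1330, against 621 at Hsp26. Beyond that window, 3 matches to GAGAG lay within 250 bp of the Hsp27 summit, the nearest starting 103 bp before it. The Hsp83 intron window, with a signal of 728, held neither motif either. The Hsp23 window held 2 heat shock element cores, starting 39 and 9 bp before the summit, and 1 match to GAGAG, although its pooled signal was 54.0. At the Hsp83 promoter, with a signal of 601, the core started 42 bp downstream of the summit. These windows were chosen for their contrast, so they do not show how motifs and signal went together over all 11 optimal summits of the 10 genes: the highest mrj summit, with 1150, had GAGAG, and the Droj2 summit, with 170, had neither motif. A match is a description of the letters and does not show that a factor was bound.

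An optimal summit lay in reach of 8 of the 10 chaperone genes. The same rule called 5317 of all 13945 protein-coding genes (38.1%), and 35.2% of the 12842 genes no longer than mrj, the longest of the 10. The 10 genes were chosen with earlier results of these data known, so their higher share is a description only. All 4 genes of the 67B cluster were called, as were 4 of the 5 constitutive chaperone and J protein genes, Hsc70-4 being the exception. Hsf was not called. The 8 genes shared 11 distinct summits, since the sole optimal summit in reach of Hsp23 was that of Hsp27. Of these 11 summits, 9 lay within 500 bp of an annotated start of some gene, against 40.6% of all 7184 optimal summits. The 11 had to lie in or within 2 kb of mostly short genes, while the 7184 had no such limit. These shares are therefore of unlike sets.

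How many genes were called depended on the reach. With flanks of 500 bp 7 of the 10 genes were called, without Hsp23, against 28.7% of all protein-coding genes, and with flanks of 5 kb all 10, against 52.4%. A summit within 500 bp of an own start was found for 7, again without Hsp23, against 21.1%. When each summit was given only to the gene of the nearest start, 6 were called, without Hsp23 and Droj2, against 25.0%. With the 3592 highest optimal regions 6 were called, without DnaJ-1 and Droj2, against 25.9%, and all 10 had a region in the pooled list, against 59.8%. In the 7184 highest regions of replicate 2 alone the same 8 genes were called, against 38.9%, and in those of replicate 1 alone 9, with Hsc70-4 added, against 38.5%.

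The highest optimal signal of the called genes had a median of 976 in the 67B cluster (4 genes, range 414 to 1330) and of 464 among the constitutive chaperone and J protein genes (4 genes, range 170 to 1150). Over all called protein-coding genes the median was 332. The ranges of the 67B genes and of the other chaperones overlapped, so the medians do not separate these classes. The 67B median also counts the Hsp27 summit a second time for Hsp23. Without Hsp23, the highest signals of the 67B genes were 414, 621 and 1330, with a median of 621. Over all distinct optimal summits in reach, not only the highest of each gene, the medians were 518 for the 4 at the 67B genes, one of them next to Fdx1, and 471 for the 7 at the other chaperone genes.

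Hsp27 (FBgn0001226, 3L:9384063-9385694, plus strand) codes for a 67B small heat shock protein that is known to localise to the nucleus. Its summit at 9383895, in the region 9383637-9384150 on 3L, lay 168 bp upstream of its only annotated start, between genes. The optimal signal was 1330 (rank 173 of 7184), with 686 in replicate 1 (rank 185) and 640 in replicate 2 (rank 172). The summit thus held nearly the same place in each list. Of the called protein-coding genes, 5.13% had a higher signal than Hsp27, against 22.4% for Hsp26 and 39.5% for Hsp22.

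Hsp23 (FBgn0001224, 3L:9381882-9382765, plus strand) codes for a cytosolic small heat shock protein of the same family. It was called only through the Hsp27 summit, which lay 2013 bp from the start of Hsp23 and 168 bp from that of Hsp27. At its own promoter the pooled list held a summit 129 bp upstream of the start, with a signal of 54.0 (rank 16873 of 30000), and another 83 bp downstream with 49.2. The highest replicate signals at the Hsp23 promoter were 26.1 in replicate 1 (rank 18676) and 31.9 in replicate 2 (rank 16902), both under the list medians of 34.2 in replicate 1 and 36.3 in replicate 2. Hsp23 and Hsp27 are 1298 bp apart, yet the Hsp27 promoter had the highest signal of the cluster while both Hsp23 summits stayed below the threshold.

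Hsp26 (FBgn0001225, 3L:9376418-9377427, minus strand) is a small heat shock gene that is also expressed in the germline. Its summit at 9377554, in the region 9377361-9377771 on 3L, lay 127 bp upstream of the outer of its starts. The optimal signal was 621 (rank 830), with 318 in replicate 1 (rank 865) and 298 in replicate 2 (rank 876). A second summit in the same region, 330 bp upstream, stayed below the threshold with a pooled signal of 69.3. The spans of Hsp67Ba and CG4461, further small heat shock genes, lie within 2 kb of the Hsp26 summit, but the nearest start was that of Hsp26.

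Hsp22 (FBgn0001223, 3L:9372931-9374964, plus strand) codes for a small heat shock protein of mitochondria, and its span lies inside that of CG4456, also named Hsp67Bb, on the same strand. Its higher summit at 9373567, in the region 9373312-9373710 on 3L, lay 430 bp upstream of the nearest Hsp22 start and 636 bp downstream of the other, in the 5′ UTR of a longer Hsp22 transcript and the 3′ UTR of CG4456. The optimal signal was 414 (rank 1639), with 233 in replicate 1 (rank 1488) and 189 in replicate 2 (rank 1898). The other optimal summit in reach, at 9371181, had a signal of 148 (rank 6638), with 82.5 in replicate 1 and 46.4 in replicate 2. That summit lay 1750 bp upstream of Hsp22 but 57 bp from the start of Fdx1, in an intron of that gene, so its nearest start was not that of a heat shock gene. It was also the optimal summit of the 10 genes nearest to the threshold, since the lowest optimal region of the list had 137.112 and the next pooled region had 137.102.

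Across the 67B cluster, with 2 kb to either side, the pooled list held 9 summits in 8 regions over 18.2 kb that also hold 11 protein-coding genes and 1 non-coding gene. Of these summits 4 were optimal, and 5 lay below the threshold with signals from 46.9 to 69.3. The 3 optimal summits at Hsp22, Hsp26 and Hsp27 stood at 414, 621 and 1330. The 5 weaker ones lay nearest to the starts of Hsp67Bc, Hsp26, the antisense gene asRNA:CR43481 and, with 2 summits, Hsp23. Signal in the cluster was therefore uneven, with high summits at 3 of its promoters and values below the pooled median of 62.9 at Hsp23 and Hsp67Bc.

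**Figure D1:**
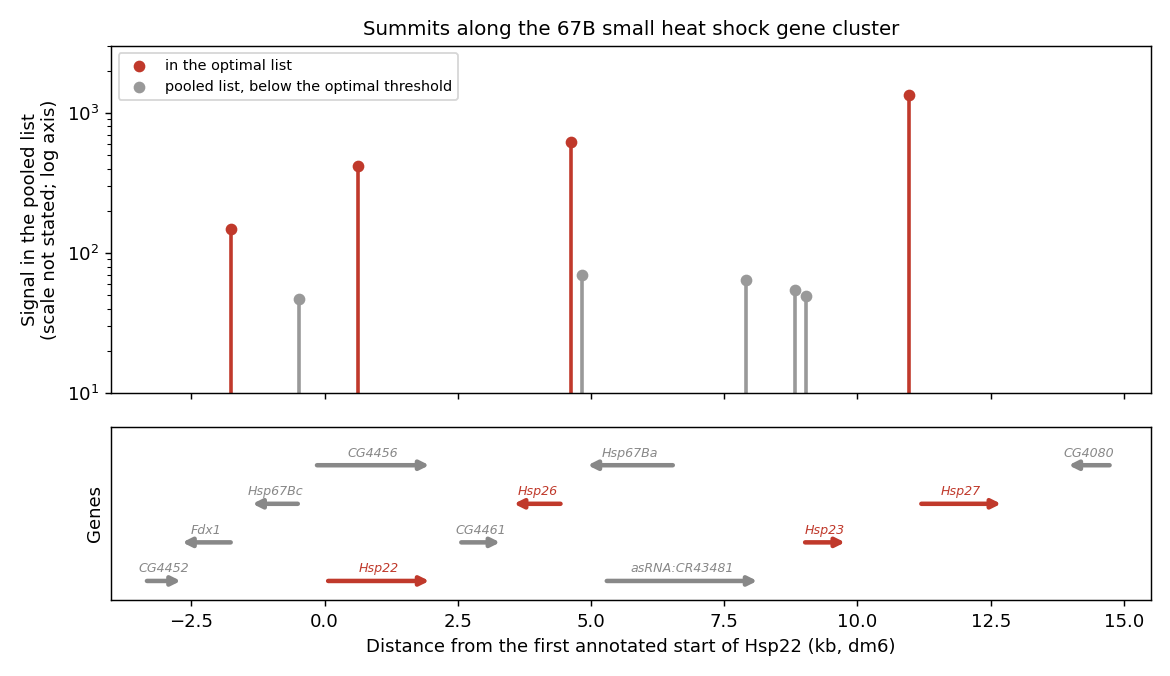
Signal of the 9 pooled summits (vertical log axis, authors' value of unstated scale) against the distance in kb of each summit from the first annotated start of Hsp22, with gene spans and directions as arrows underneath. Red lines are summits of the optimal list and grey lines are summits below its threshold. The tallest line, at 1330, stands just upstream of Hsp27, while the grey lines at Hsp23 reach 54.0 and 49.2.

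Among the constitutive chaperones, Hsp83 (FBgn0001233, 3L:3192969-3197059, plus strand) codes for the fly's cytosolic Hsp90, which is abundant without heat and rises further on heat. It had 2 optimal summits. The higher, at 3194266 in the region 3194034-3194478 on 3L, lay in the intron 1050 bp downstream of the nearest start, with a signal of 728 (rank 608), 360 in replicate 1 (rank 679) and 370 in replicate 2 (rank 561). The other, at 3193106 in the region 3192826-3193322, lay 110 bp upstream of the start at 3193216 and in the 5′ UTR of a transcript that starts further upstream, with a signal of 601 (rank 884), 210 in replicate 1 (rank 1774) and 387 in replicate 2 (rank 511). The intron summit was the higher one in replicate 1, and the promoter summit was slightly the higher one in replicate 2. The order of the Hsp83 summits was therefore not the same in both replicates. By its higher summit, 16.6% of the called protein-coding genes stood above Hsp83.

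Hsc70-4 (FBgn0266599, 3R:15242687-15246614, plus strand) codes for the main constitutive cytosolic Hsp70 and is known for its part in uncoating clathrin vesicles. It had no optimal summit. The highest of its 3 pooled entries had a summit at 15242672 on 3R, 15 bp upstream of the first of its 6 starts, with a signal of 114 (rank 8666). At that position the signals were 71.5 in replicate 1 (rank 7322) and 47.4 in replicate 2 (rank 11531, 12 bp downstream of the start). Replicate 1 also listed a separate summit 215 bp upstream of the start with 130 (rank 3531). Through that upstream summit Hsc70-4 was among the 7184 highest regions of replicate 1 but not of replicate 2, and the pooled list had no summit there.

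The J proteins bring clients to Hsp70. DnaJ-1 (FBgn0263106, 3L:5750029-5752189, minus strand) codes for the fly's Hsp40, a co-chaperone that is itself heat-inducible. Its single optimal summit at 5751993, in the region 5751715-5752270 on 3L, lay in the 5′ UTR 196 bp downstream of the start, with a signal of 200 (rank 4673), 112 in replicate 1 (rank 4315) and 92.7 in replicate 2 (rank 5294). Of the called protein-coding genes, 79.4% had a higher signal than DnaJ-1, and 88.1% a higher one than Droj2.

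Droj2 (FBgn0038145, 3R:13382106-13385283, plus strand) codes for another cytosolic J protein. Its single optimal summit at 13381926, in the region 13381648-13382203 on 3R, lay 180 bp upstream of its first start but 117 bp from the start of mRpS21, a mitochondrial ribosomal protein gene, so a promoter region next to both genes held it. The signal was 170 (rank 5630), with 75.6 in replicate 1 (rank 6877) and 93.8 in replicate 2 (rank 5214). Replicate 2 alone listed a higher region further in, with a summit at 13383029 and a signal of 125 (rank 3500), 207 bp downstream of another Droj2 start. Neither replicate 1 nor the pooled list had a region in reach of Droj2 at that position. Of the 7184 highest regions, 1.73% in replicate 2 and 2.77% in replicate 1 lacked a pooled summit within 250 bp.

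The J protein gene mrj (FBgn0034091, 2R:16203329-16221793, minus strand), known for keeping polyglutamine proteins from aggregating, has a span of 18465 bp. Its highest signal was above those of DnaJ-1 and Droj2 and was exceeded by 7.60% of the called protein-coding genes, while the J protein genes DnaJ-H and Tpr2, outside the 10, reached 766 and 648. It had 3 optimal summits on 2R, all in introns of its longer transcripts. The highest, at 16206528 in the region 16206254-16206811, lay 290 bp upstream of an internal start, with a signal of 1150 (rank 258), 602 in replicate 1 (rank 263) and 549 in replicate 2 (rank 252). A second summit in that region, at 16206731, had a signal of 298 (rank 2720), with 224 in replicate 1 and 116 in replicate 2. The third, at 16211060, lay 663 bp upstream of another internal start, with a signal of 471 (rank 1366), 224 in replicate 1 and 246 in replicate 2.

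At its outermost start, mrj had a pooled signal of 94.4 at a summit 43 bp downstream, below the threshold. The 3 optimal summits were thus nearest to internal starts, from 290 to 663 bp upstream of them, and not to the first one. The pooled list held 21 summits over mrj and its flanks, while the other 9 genes, all of them shorter, had from 1 to 5.

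Hsf (FBgn0001222, 2R:18130303-18134634, minus strand), the gene of the heat shock factor itself, was the weakest of the 10 by the highest summit in reach. Its 5 pooled entries had a highest signal of 68.9 (rank 13925) at 18134274 on 2R, in an intron 360 bp downstream of the start. The highest replicate signals there were 31.4 in replicate 1 (rank 16103) and 44.3 in replicate 2 (rank 12357). That ranking counts the Hsp27 summit for Hsp23. The summits at the Hsp23 promoter itself were weaker than that of Hsf, with pooled signals of 54.0 and 49.2. Among the 10020 protein-coding genes no longer than Hsf 30.6% were called.

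Some of the weaker pooled regions of the called genes lay beside the optimal ones or at neighbours. Others lay at the Hsp23 promoter, at starts of mrj or deeper in the mrj introns. DnaJ-1 had a further summit 11 bp upstream of its start with a pooled signal of 60.5, and Droj2 one 20 bp downstream with 47.0. The third pooled region in reach of Hsp83 had a signal of 69.4 and lay 9 bp from the start of CG14966. At mrj the highest region below the threshold, with 128 (rank 7713), lay 72 bp from the start of Shark, and several others lay nearest to tRNA genes inside the mrj introns, with pooled signals of up to 88.0. These values were all below the lowest optimal signal.

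Wider flanks gave the uncalled genes summits of other genes. Within 5 kb Hsc70-4 reached a summit with a signal of 586 (rank 929), which lay 4069 bp from its span and 589 bp from the start of CG42404. Hsf reached summits of 205 and 179, which lay 4360 and 4155 bp from its span and nearest to the starts of stau and Spn55B.

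**Figure D2:**
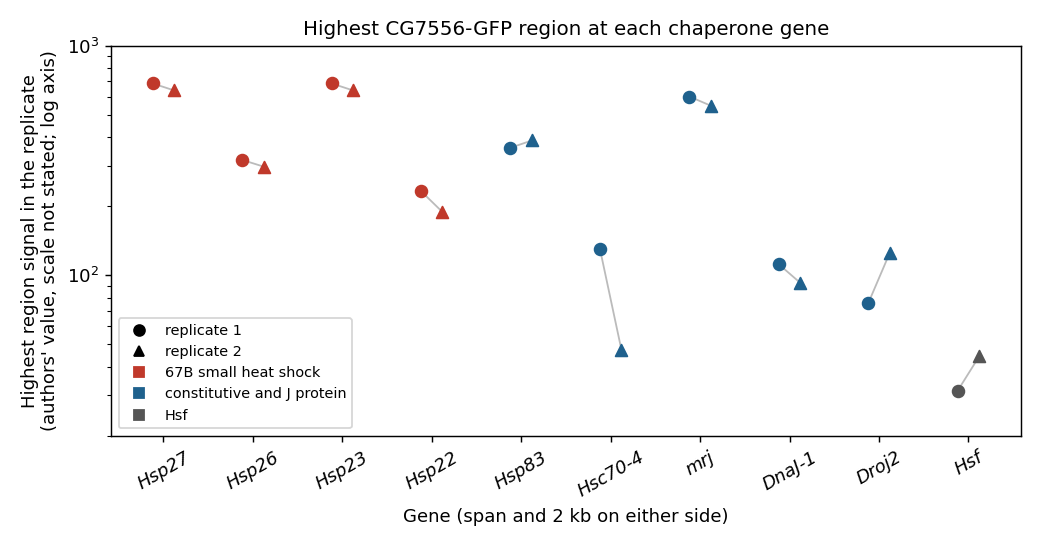
Highest region signal within 2 kb of each of the 10 genes in replicate 1 (circles) and replicate 2 (triangles), on a log axis of the authors' value with unstated scale; red marks 67B genes, blue the constitutive and J protein genes, grey Hsf. Hsp27 and Hsp23 share 1 region, and with that region counted for Hsp23, Hsf is lowest in both replicates. At the Hsp23 promoter itself the highest signals, 26.1 in replicate 1 and 31.9 in replicate 2, were below those of Hsf. At Hsp83, Hsc70-4 and Droj2 the points are different summits: Hsc70-4 lies at 130 and 47.4, but had 71.5 in replicate 1 at the summit it shares with replicate 2.

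All 11 optimal summits had a summit within 100 bp in both replicate lists, the largest shift being 42 bp. So did 6771 of all 7184 optimal summits. The optimal list was itself chosen for agreement between replicates, so these matches are no separate support for the 11 summits. The ratio of replicate 1 to replicate 2 had a median of 1.07 over the 11 (range 0.542 to 1.94), against 1.08 over the 6771 optimal summits matched in the same way. Of those matched summits, the 5th percentile was 0.565 and the 95th was 1.70. Outside these bounds lay the Hsp83 promoter summit at 0.542, the Fdx1 summit near Hsp22 at 1.78 and the second mrj summit of the shared region at 1.94. At Hsp27, Hsp26 and the highest mrj summit the ratios were 1.07, 1.07 and 1.10, close to the median of all matched summits.

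The order of the called genes by highest optimal signal was Hsp27 with Hsp23, mrj, Hsp83, Hsp26, Hsp22, DnaJ-1 and Droj2. From Hsp27 down to Hsp22 this order was the same in both replicates. DnaJ-1 and Droj2 changed places between the replicates, 112 and 75.6 in replicate 1 against 92.7 and 125 in replicate 2, the last value being the Droj2 region found in that replicate alone.

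Most summits lay close to the start of their own gene. The Hsp27, Hsp26, Hsp83 promoter and Droj2 summits lay from 110 to 180 bp upstream, and the DnaJ-1 summit 196 bp downstream. The nearer Hsp22 summit and those at mrj lay further upstream, from 290 to 663 bp. The Hsp83 intron summit, 1050 bp downstream, was the sole one of the 11 inside its own gene at more than 1 kb from its starts.

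**Figure D3:**
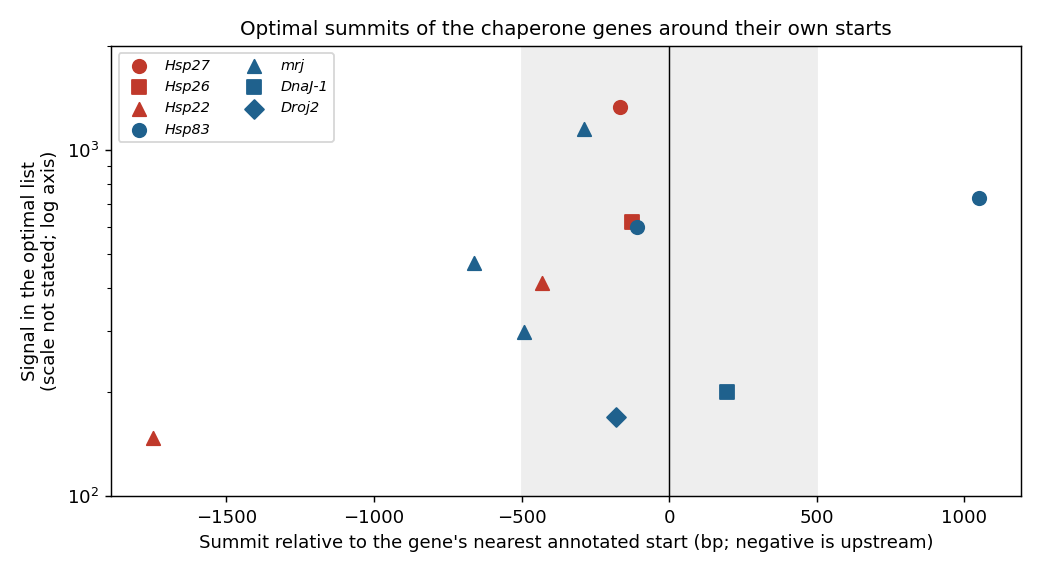
Signal of the 11 optimal summits (log axis, authors' value) against the distance in bp from the nearest annotated start of the gene they were assigned to, negative values being upstream. Red symbols are 67B genes, blue symbols the constitutive and J protein genes, and the shaded band reaches 500 bp to either side of the start; Hsp23 has no symbol because its summit is that of Hsp27. The point at 1750 bp upstream of Hsp22 is the summit 57 bp from Fdx1.

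Motifs were counted within 100 bp of each summit, on both strands. The heat shock element core was found at 2 of the 11 summits, Hsp26 and the Hsp83 promoter, against 10.7% of all optimal summits and 10.1% of the 19876 sub-threshold pooled regions, those that overlap no optimal region. GAGAG was found at 5 of the 11, at Hsp22, Hsp26 and all 3 mrj summits, against 20.7% of optimal and 21.7% of sub-threshold summits. The 2 mrj summits of the shared region looked onto the same run of GAGAG from either side, so the 5 matches are not independent. No test was made on counts as small as 2 and 5 of 11.

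The width of the window changed both counts. Within 50 bp, GAGAG was left at 1 of the 11 summits, against 9.09% of all optimal summits, and the heat shock element stayed at 2, against 5.65%. GAGAG lay within 250 bp of 7 of the 11, with Hsp27 and DnaJ-1 added, against 51.5% of all optimal summits. Within 250 bp, a heat shock element core lay near 6 of the 11 summits, against 22.9% of all optimal summits. These were the summits at Hsp22, Hsp27, Hsp26, DnaJ-1 and both at Hsp83. The Hsp26 summit had 5 such cores, and the other 5 summits had 1 each, which at Hsp27 started 170 bp before the summit. These 5 genes are known to be heat-inducible. Since heat shock genes were listed by name, the count does not link the signal to the element. The sub-threshold Hsp23 promoter summit, with a pooled signal of 54.0, had 2 cores. The summits at mrj, Droj2 and Fdx1 had no such core within 250 bp. The highest pooled summits of the uncalled genes, Hsc70-4 and Hsf, had 1 core each, starting 142 bp before the summit at Hsc70-4 and 167 bp before it at Hsf.

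TATAAA, the core of a TATA box, was found within 100 bp at 5 of the 11 summits, against 40.3% of all optimal and 29.0% of sub-threshold summits. The palindrome TATCGATA, the DNA replication-related element (DRE) of many broadly active promoters, was found at 1, the Fdx1 summit, against 2.02% of optimal and 1.45% of sub-threshold summits. The core of Ohler motif 1, GGTCACAC, was found at 0 of the 11, against 1.09% of optimal and 1.26% of sub-threshold summits. The Zelda core CAGGTA was also found at 0, against 3.74% of optimal and 3.75% of sub-threshold summits. So was the E-box CACGTG, against 1.78% of optimal and 2.17% of sub-threshold summits. The share of G and C within 100 bp had a median of 30.3% over the 11 summits (range 23.4% to 48.8%), against 33.3% over all optimal and 38.3% over sub-threshold summits.

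**Figure D4:**
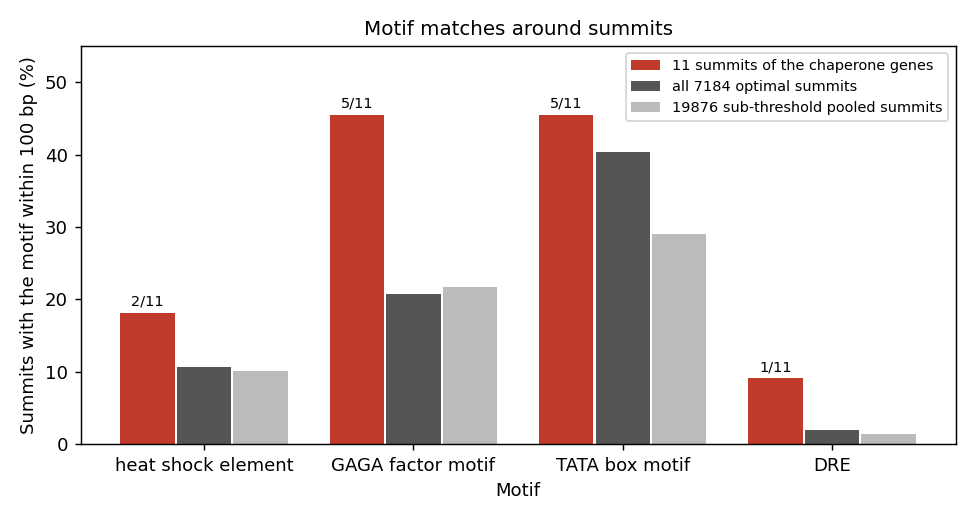
Percent of summits with each motif within 100 bp, for the 11 summits of the chaperone genes (red, with the count above the bar), all 7184 optimal summits (dark grey) and 19876 sub-threshold pooled summits (light grey). The GAGA factor motif is GAGAG and the TATA box motif is TATAAA; every red bar is a share of 11 summits, and 3 of the 5 with GAGAG are at mrj.

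A list of 42 further chaperone genes was read by the same rule. An optimal summit was in reach of 14 of them, 33.3%, against 38.1% of all protein-coding genes. The 42 include nearly identical Hsp70 copies, counted as not called, where a missing region cannot be read as missing binding. The lower share is therefore not read as a deficit. In 4 of the 14, namely CG4461, Hsp67Ba, CG4456 and Hsp67Bc, the highest summit was one of the 67B summits already described at Hsp26 or Hsp22. The highest of the others were stv, a co-chaperone of Hsp70 of the BAG family, with a signal of 878 at 539 bp from its start, and Stip1, which links Hsp70 to Hsp90, with 794. The Stip1 summit lay 191 bp from the start of Pi3K21B and 2567 bp from that of Stip1. DnaJ-H, a J protein gene, had 766 at 330 bp, with the start of Sirt1 nearer at 216 bp, and Tpr2, another J protein gene, had 648 at 1286 bp.

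By class, 5 of 8 other small heat shock genes were called, 2 of 6 other J protein genes, 3 of 8 subunit genes of the CCT chaperonin, which folds actin and tubulin, and 4 of 10 partners of Hsp90 and Hsp70, beside the 38.1% of all protein-coding genes. When each summit was given only to the gene of the nearest start, 5 of the 42 genes were called, namely CG14207, Tpr2, CCT3, stv and Sgt, against 25.0% of all protein-coding genes. By the main rule, none of the 7 heat-inducible Hsp70 genes was called, and none of 3 other Hsc70 and Hsp110 genes, where Hsp110 came nearest with a pooled signal of 121. The 6 Hsp70 copies had no region in the pooled list, and Hsp68 had one of 62.2. These Hsp70 copies are nearly identical, and how reads that match several of them were treated was not stated in the labels or description files, so a missing region there cannot be read as missing binding.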

How the data were processed

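The members and the gene lists were chosen with earlier results of these data known. Per the description files deposited with the data, the authors made lists of peaks and background regions on build dm6 from each replicate and from both pooled, each with a control, and an optimal list after thresholding by irreproducible discovery rate. For aligner, peak caller, versions and threshold, nothing was given in the sources used here. The deposited signal is 1 value per region of unstated scale, and the other deposited column used holds the summit as an offset from the region start. Summits were read as region start plus offset. In all, 2 mitochondrial regions of replicate 1 were left out, and the dm3 lists were not used. Genes and starts came from Ensembl release 115 (BDGP 6.54), and sequence from the RefSeq Release 6 assembly, whose arm lengths no region exceeded. Replicate summits were matched within 100 bp. All 10 members are named. Of the further genes, the 8 called ones with the highest signal are named, and also those called by nearest start. Hsp110 and Hsp68, which were not called, are named for their pooled signals. Neighbours are named where their start is nearest to a summit described here or their span holds a member summit. The assignment of summits to genes and the motif search were tested on simulated data, and the matching of replicate summits was not. Python 3.11.15, numpy 2.4.6, pandas 2.3.3 and matplotlib 3.10.9 were used. Alternatives were other flanks, windows, lists and each replicate alone.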

Additional observations from a re-analysis of the deposited data

How the results depend on the processing

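The count of called chaperone genes ran from 6 to 10 of 10 over the alternatives and from 8 to 9 with each replicate left out. Flanks of 500 bp dropped Hsp23, assignment to the nearest start dropped Hsp23 and Droj2, the 3592 highest optimal regions dropped DnaJ-1 and Droj2, and replicate 1 alone added Hsc70-4. Flanks of 5 kb added Hsc70-4 and Hsf through summits at least 4069 bp away, nearest to the starts of CG42404, stau and Spn55B. With those 3592 regions, 2 of the 5 constitutive chaperone and J protein genes were called. Within 500 bp of a start, 2939 protein-coding genes and 7 of the 42 further chaperone genes were called; by nearest start, 3481 and 5; with all pooled regions, 8336 and 26. The median highest signal of the 67B genes was 621 with 500 bp flanks and 469 to 502 with each replicate left out. That of the constitutive chaperone and J protein genes was 586 with 5 kb flanks and 130 to 256 with each replicate left out. The value of 130 is that of Hsc70-4, which joined as the fifth gene when replicate 2 was left out. The values with a replicate left out come from the replicate lists and the others from the optimal list. The median signal of the lists was 34.2 in replicate 1 and 36.3 in replicate 2, against 62.9 in the pooled list. Whether this difference in level accounts for the shifts with a replicate left out was not tested. The value of 621 is the median without Hsp23, and that of 586 is the CG42404 summit in reach of Hsc70-4. The heat shock element count was 6 of 11 summits within 250 bp, and the GAGAG count 1 of 11 within 50 bp and 7 of 11 within 250 bp. No paired analysis was possible because the series has 1 group.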
